A study of Bos taurus with 21 samples.

Results

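ENSBTAG00000022548 and ENSBTAG00000044427 are 2 of the 22984 Ensembl-style gene identifiers counted in the hypothalamus of heifers (Bos taurus). They were chosen by the difference between 2 groups of underfed animals: among genes lower in heifers that had stopped ovulating than in heifers that still ovulated, they had the smallest p-values, and both were also highest in the ovulating underfed group. Group levels are therefore given below as a description, with no test. Both genes passed the filter on low counts, which kept 13435 genes. The tables carry identifiers without names, and 0 of the 22984 identifiers matched the reference gene table used here, so no symbol, position, function or sequence is given for either gene.

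The study held 21 libraries of polyA-selected hypothalamic RNA, 7 in each of 3 groups of animals. Control heifers were fed at 1.2 Mn (the labels' unit for estimated energy requirement, not spelled out there) and ovulated. The restricted anovulatory group (RA) was fed at 0.4 Mn and did not ovulate. The restricted ovulatory group (RO) had the same 0.4 Mn diet and did ovulate. RA and RO were thus separated by the animals' outcome and not by an assigned treatment, and the feeding levels had differed for 18 days when all animals were sampled. No source used here gives breed, age or body condition. Nothing beyond the replicate numbers says that libraries came from separate animals, so p-values measure the spread between these libraries. Because the tissue was bulk, fewer cells of a type and less RNA per cell cannot be told apart, and marker genes of the labelled tissue were not checked here for want of gene names.

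The hypothalamus is the brain region that couples feeding to reproduction. Neurons there release gonadotropin-releasing hormone in pulses, and these pulses drive the pituitary gonadotropins that ripen and ovulate the follicle. Undernutrition is known to slow the pulses, while neighbouring neurons that sense leptin, insulin and nutrients relay the energy state to them.

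Total counts ran from 3379050 to 4476586 per library. Libraries are also sorted below by a date-like string in the deposited file names, whose meaning no label states. Its 4 values are called runs A to D. From run A came 1 RA, 1 RO and 1 control library, from run B the remaining 6 RO libraries and 1 control, from run C 2 RA libraries and 5 controls, and from run D the other 4 RA libraries. Levels are read counts scaled to library size (CPM), with TMM scaling as a correction for library composition. CPM is not corrected for gene length, so levels are compared between groups and not between genes.

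ENSBTAG00000022548 was the more abundant of the pair in read counts, with a mean of 126.6 CPM over the 21 libraries, above 81.6% of the tested genes. In RA it ranged from 60.4 to 124 CPM with a median of 97.1. In controls the range was 67.1 to 142 CPM with a median of 112. In RO the lowest library stood at 144 CPM, the median at 172 and the highest at 221. All 7 RO libraries were thus above all 14 others, although the gap to the highest control was under 2 CPM. Such a gap between RA and RO, with RA lower, was seen for 0.484% of tested genes, and between RO and control, with RO higher, for 0.0298%. These shares are background only, since the gene was selected on this difference. The group means were 93.3 ± 19.3 CPM in RA, 112.7 ± 27.6 in controls and 173.9 ± 26.9 in RO (SD, n = 7 each).

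ENSBTAG00000044427 was scarcer, at a mean of 12.1 CPM and above 18.0% of tested genes, with 13 to 121 reads per library. Its RA libraries ranged from 3.47 to 11.1 CPM (median 7.05). Controls ranged from 5.04 to 12.3 CPM (median 10.3). RO libraries ranged from 10.1 to 33.4 CPM (median 18.9). Here the groups overlapped: RO replicates 5 and 7 lay at 11.1 and 10.1 CPM, inside the control range, while the other 5 RO libraries were above every RA and control library. Mean levels were 6.97 ± 2.25 CPM in RA, 9.56 ± 2.46 in controls and 19.7 ± 8.95 in RO (SD, n = 7 each). The spread within RO, a coefficient of variation of 45.3%, was larger than the 11.6% that counting error alone gives at that depth. The other groups were also above counting error, at 32.3% against 18.9% in RA and 25.7% against 16.3% in controls. For both genes the order of the means was RO, control, RA, an order found for 26.3% of all tested genes.

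**Figure D1:**
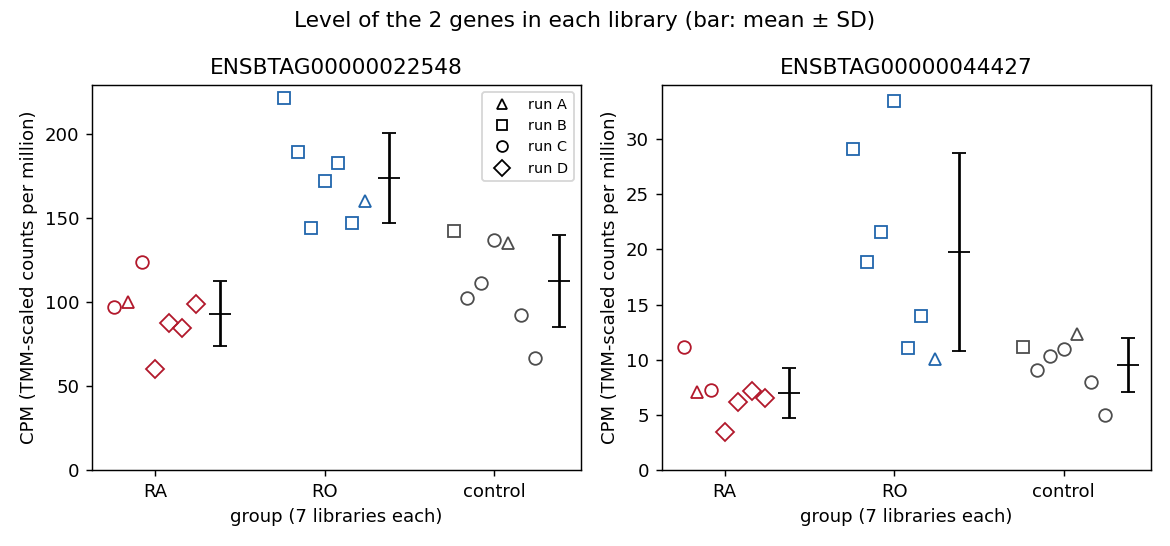
Level of each gene in CPM (linear axis from 0) for every library, by group; symbols give the run and black bars the mean ± SD of 7 libraries. The RO libraries of ENSBTAG00000022548 lie between 144 and 221 CPM, above all others, whereas RO libraries of ENSBTAG00000044427 reach down to 10.1 CPM, inside the control range.

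In the edgeR model of 3 group means, ENSBTAG00000022548 had a log2 fold change of -0.90 (SE 0.15) for RA against RO, 0.62 (SE 0.15) for RO against control and -0.27 (SE 0.15) for RA against control. The corresponding values of ENSBTAG00000044427 were -1.50 (SE 0.27), 1.04 (SE 0.26) and -0.46 (SE 0.28). The 3 comparisons share libraries and are not independent. These sizes follow in part from the choice of the genes, and the distances of RO and RA from controls were not tested against each other. The gene just outside the choice, ENSBTAG00000027361, averaged 32.7 ± 1.62 CPM over RO libraries, 27.7 ± 2.95 over controls and 23.9 ± 2.97 over RA (SD, n = 7 each), with a log2 fold change of -0.45 (SE 0.088) between RA and RO. It had the same order of means with a smaller difference and a smaller error.

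Run moved with group, and both genes were described within runs. In run A, ENSBTAG00000022548 stood at 160 CPM in RO, 135 in control and 99.99 in RA, which is the order of the group means. ENSBTAG00000044427 stood at 10.1, 12.3 and 7.05 CPM in the same libraries, with the control above RO. In run B the only control measured 142 CPM for ENSBTAG00000022548, below the 6 RO libraries (144 to 221 CPM), and 11.2 CPM for ENSBTAG00000044427, just above the lowest RO library at 11.1 CPM. That control was also the highest of its group for ENSBTAG00000022548, and the 5 run C controls averaged 102 ± 25.6 CPM (SD, n = 5).

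Inside RA, the 4 run D libraries averaged 83.0 ± 16.3 CPM for ENSBTAG00000022548 and 5.84 ± 1.63 for ENSBTAG00000044427 (SD, n = 4). The single run A library had 99.99 and 7.05 CPM, and the 2 run C libraries averaged 111 and 9.20 CPM. Run D was lower by -0.38 log2 CPM for ENSBTAG00000022548 (two-sided exact permutation test, 35 arrangements, p = 0.0857, and 0.114 when adjusted for 2 genes) and by -0.52 for ENSBTAG00000044427 (exact permutation p = 0.114, adjusted 0.114). The smallest p this design allows is 0.0286. Neither difference passed the test, and the SDs over all 7 RA libraries were 0.32 and 0.46 log2 CPM. Without RA replicate 4 the differences were -0.23 and -0.30.

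With run as a covariate, RA against RO was -0.40 (SE 0.26) for ENSBTAG00000022548 and -0.62 (SE 0.50) for ENSBTAG00000044427. RO against control became 0.36 (SE 0.22) and 0.54 (SE 0.41), and RA against control -0.04 (SE 0.19) and -0.07 (SE 0.34). All 6 signs were kept, but standard errors were larger than before and all 6 of the 95% intervals included 0. For RA against RO they ran from -0.94 to 0.15 for ENSBTAG00000022548 and from -1.65 to 0.42 for ENSBTAG00000044427. Those of RA against control included 0 without the run term too. Run D held RA alone, so its 4 libraries do not enter these fold changes, and the share of the difference that belongs to run and to group cannot be told apart.

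**Figure D2:**
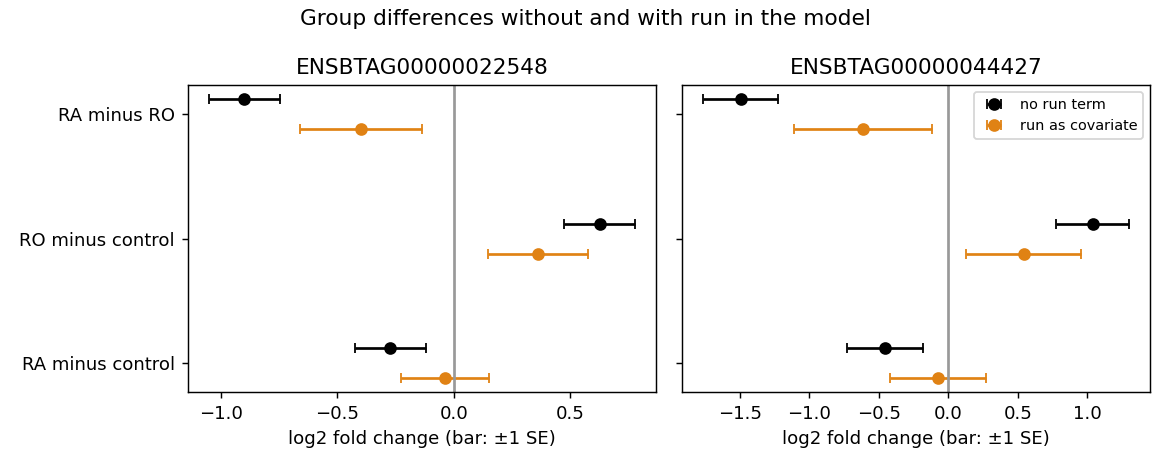
Log2 fold change of each gene in the 3 group comparisons, with bars of ±1 SE, from the model without a run term (black) and with run as a covariate (orange). For RA against RO the values move from -0.90 to -0.40 for ENSBTAG00000022548 and from -1.50 to -0.62 for ENSBTAG00000044427.

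Whether the genes varied together inside the groups was not used to choose them. After group means were removed, their log2 CPM values correlated over the 21 libraries with Pearson's r = 0.629 (two-sided permutation test within groups, p = 0.00211) and Spearman's rho = 0.588 (p = 0.00771). Over the family of 4 correlations the adjusted values were 0.00422 and 0.0246. RA replicate 4 and control replicate 7 were the lowest libraries of their groups for both genes. They lay farthest from the median of the ENSBTAG00000022548 deviations. For ENSBTAG00000044427, RO replicate 4 deviated as much from its group mean (0.87, against -0.85 in RA replicate 4 and -0.81 in control replicate 7). Leaving both out gave r = 0.389, and r = 0.348 (permutation p = 0.176) with scaling and group means recomputed. The pooled relation thus depended in large part on those 2 libraries, and it was not detected without them. Within cells of 1 group and 1 run, which removes run as well, r was 0.550 over 17 libraries (permutation p = 0.0307) and rho 0.431 (p = 0.115).

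Taken group by group, the genes tracked each other most closely in controls, where r was 0.970 (exact permutation test, n = 7, p = 0.000992, adjusted 0.00397) and rho 0.893 (p = 0.0123, adjusted 0.0246), and r was 0.949 without replicates 7 and 1. In RA r was 0.717 (exact permutation p = 0.0722, adjusted 0.0963) and rho 0.5 (p = 0.267, adjusted 0.356), with r = 0.0853 once RA replicate 4 was left out. In RO r was 0.345 (exact permutation p = 0.446, adjusted 0.446) and rho 0.214 (p = 0.662, adjusted 0.662), and 0.283 in the 6 RO libraries of run B (exact permutation p = 0.560). RO replicate 4, highest of all libraries for ENSBTAG00000044427 at 33.4 CPM, was the RO median for ENSBTAG00000022548 at 172 CPM. RO replicate 5 combined 183 CPM of ENSBTAG00000022548 with 11.1 CPM of ENSBTAG00000044427. RO, where both genes were highest, had the lowest correlation of the 3 groups, and the difference between the correlations was not itself tested. The log2 SD of ENSBTAG00000022548 was 0.22 in RO, 0.32 in RA and 0.39 in controls, and a narrow range can lower r. That of ENSBTAG00000044427 was 0.65, 0.46 and 0.41 in the same order. The part of these spreads in the correlations was not tested.

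**Figure D3:**
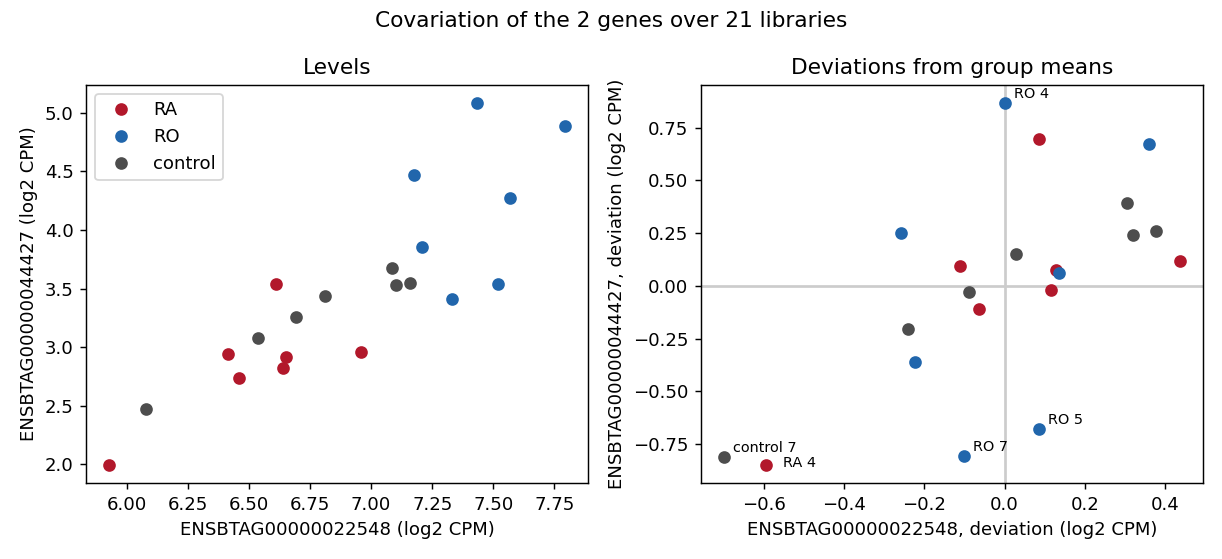
Left, log2 CPM of the 2 genes in each of 21 libraries, coloured by group; right, the same values as deviations from their group means, with 5 libraries named. Control replicate 7 and RA replicate 4 sit together at the lower left, and RO replicates 4, 5 and 7 spread vertically near the middle.

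The ratio of the 2 genes within a library, which does not depend on scaling between libraries, can be set against counting error directly. In controls the ratio of ENSBTAG00000022548 to ENSBTAG00000044427 reads stayed between 10.8 and 13.3. In RA it ran from 8.73 to 17.4. In RO it ran from 5.16 in replicate 4 to 16.5 in replicate 5. The SD of the log2 ratio was 0.63 in RO, where counting error alone gives 0.19, and the 7 RO ratios differed beyond counting error (chi-square of 71.0 on 6 degrees of freedom, p = 2.54e-13, adjusted over 3 groups 7.63e-13). In RA the SD was 0.34 against 0.30 from counting (chi-square test, p = 0.116, adjusted 0.175).

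In controls the log2 ratio had an SD of 0.11, less than the 0.26 that counting gives, and the chi-square of 1.17 was in the low tail of its distribution (one-sided p = 0.0216). No difference in ratio between control libraries was detected beyond counting error. These chi-square tests compare libraries, cover counting error only, and treat reads as independent. Over libraries, the mean absolute deviation of the log2 ratio from its group median was 0.49 in RO and 0.09 in controls (two-sided exact permutation test, 3432 arrangements, p = 0.0192, and 0.0577 when adjusted for 3 pairs of groups). RO against RA (0.49 and 0.23) gave an exact permutation p of 0.133 and RA against control 0.161, both 0.161 after adjustment. No pair of groups passed an adjusted 0.05.

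**Figure D4:**
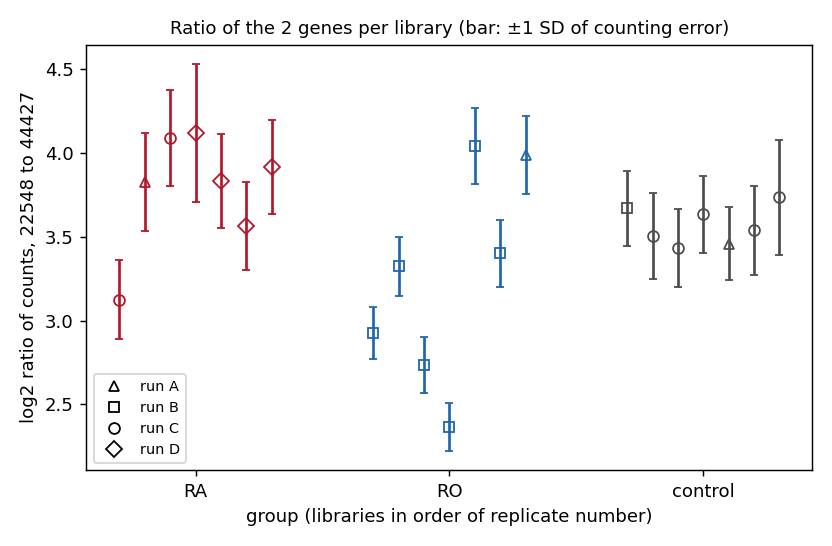
Log2 ratio of ENSBTAG00000022548 to ENSBTAG00000044427 read counts in each library, by group and in order of replicate number, with bars of ±1 SD of counting error and symbols for the run. The bars of all control points overlap, while RO points range from 2.37 to 4.04 and their bars do not overlap at the extremes.

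Depth and breadth of the libraries were set against both genes. Over 10 relations with group means removed, covering total count, number of genes detected, share of reads in the 10 most abundant genes and the first 2 principal components of all genes, none passed adjustment (adjusted permutation p from 0.294 to 0.970). The largest Pearson's r was that of ENSBTAG00000022548 with the second component, which held 14.3% of the within-group variance (r = -0.488, permutation p = 0.0294, rho = -0.434, p = 0.0567), and r was -0.292 without the 2 libraries farthest on that component. The largest rho was that of ENSBTAG00000022548 with the share of the 10 most abundant genes (rho = 0.453, permutation p = 0.0481, not adjusted), where r was 0.165 (p = 0.513). ENSBTAG00000044427 had r = 0.059 with the same component (permutation p = 0.816, rho = 0.032, p = 0.897), and r was 0.368 without the same 2 libraries. The first component, 20.01% of the variance, had its largest score in control replicate 5, and its r was 0.010 (permutation p = 0.970, rho = -0.070, p = 0.777) with ENSBTAG00000022548 and 0.181 (p = 0.402, rho = 0.074, p = 0.750) with ENSBTAG00000044427.

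The other tested genes were then ranked by the correlation of their within-group deviations with those of each member, over the same 21 libraries. All such values share depth and run and are given as a description. ENSBTAG00000022548 had 50 genes with r above 0.7 and 9 below -0.7 out of 13434. ENSBTAG00000044427 had 3 above 0.7 and 0 below -0.7. The 2 members were not each other's nearest gene: ENSBTAG00000044427 ranked 212 for ENSBTAG00000022548, and ENSBTAG00000022548 ranked 13 for ENSBTAG00000044427. The 20 nearest genes of each had 0 in common, and the 100 nearest had 4 in common, 4% of each list.

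The gene nearest to ENSBTAG00000022548 was ENSBTAG00000009251 (r = 0.834, and 0.867 with run means also removed), whose means were 34.1 ± 5.64 CPM in controls, 37.9 ± 2.72 in RO and 32.6 ± 5.09 in RA (SD, n = 7 each). Next came ENSBTAG00000001557 (r = 0.814), a gene of 2.98 to 5.10 CPM in the group means, then ENSBTAG00000019667 (0.799) and ENSBTAG00000011969 (0.788). The 10 nearest, which also include ENSBTAG00000002467, ENSBTAG00000016577, ENSBTAG00000030209, ENSBTAG00000019219, ENSBTAG00000026320 and ENSBTAG00000018999, had r from 0.742 to 0.834, and from 0.675 to 0.867 with run means removed. All of the 10 but ENSBTAG00000001557 had their highest mean in RO. ENSBTAG00000016577 averaged 67.8 ± 9.93 CPM in RA, 84.3 ± 16.0 in controls and 96.7 ± 23.9 in RO (SD, n = 7 each). Within single groups, r of these 10 with ENSBTAG00000022548 was 0.791 to 0.982 in controls, 0.673 to 0.957 in RA and 0.231 to 0.764 in RO. Each of the 10 had its lowest r in RO. They were picked by r over all groups together, and ENSBTAG00000022548 varied least in RO (log2 SD 0.22, against 0.32 in RA and 0.39 in controls). The ranking thus gave RO the least weight, and the lower r there is in part set by it. At the other end, ENSBTAG00000017699 (r = -0.757), ENSBTAG00000009227 (-0.746), ENSBTAG00000014700 (-0.739), ENSBTAG00000038327 (-0.735) and ENSBTAG00000020736 (-0.715) moved against the gene, and none of these 5 had its highest mean in RO.

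The gene nearest to ENSBTAG00000044427 was ENSBTAG00000045275 (r = 0.775, and 0.806 with run means also removed), whose means were 7.83 ± 2.15 CPM in controls, 9.51 ± 4.31 in RO and 7.46 ± 1.20 in RA (SD, n = 7 each). It was followed by ENSBTAG00000006088 (0.741), ENSBTAG00000032447 (0.736), ENSBTAG00000013455 (0.693) and ENSBTAG00000013444 (0.681). ENSBTAG00000008632, ENSBTAG00000019887, ENSBTAG00000033680, ENSBTAG00000014430 and ENSBTAG00000000406 completed the nearest 10, at r of 0.641 to 0.658. ENSBTAG00000006088 tracked the gene at r = 0.976 in RO and 0.311 in RA, while its own group means were nearly equal (18.3 ± 2.1 CPM in controls, 19.8 ± 2.78 in RO and 19.8 ± 1.37 in RA, SD, n = 7 each). Over the 10 nearest, r ran from 0.387 to 0.976 in RO, from 0.578 to 0.916 in controls and from -0.237 to 0.930 in RA. The 5 lowest were ENSBTAG00000005964 (-0.661), ENSBTAG00000011590 (-0.650), ENSBTAG00000010813 (-0.596), ENSBTAG00000021787 (-0.590) and ENSBTAG00000011682 (-0.581). Counting error is larger for this gene than for ENSBTAG00000022548 (16.3% against 4.75% of the level in controls), and its part in the lower correlations was not tested.

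Group means play no part in these rankings. The members themselves, however, were chosen for being lower in RA than in RO and highest in RO. The direction of genes that vary with them is thus not separate from that choice. It was also taken in the same libraries and is given as a description. Of the 100 genes nearest to ENSBTAG00000022548, 90 had their highest mean in RO, against 35.9% of all tested genes, and 85 had the order RO, control, RA, against 26.3%. Their median log2 fold change was -0.25 for RA against RO, where the median of all tested genes was 0.01, and 96 of the 100 were lower in RA. Of the 100 genes at the opposite end, 3 had their highest mean in RO and 2 were lower in RA than in RO. These counts do not take run into account, and several of them moved toward the background once it was, as given below. The 100 nearest genes also moved with each other (median pairwise r = 0.663), so they stand for 1 shared pattern and not for 100 separate observations. Without control replicate 7, 60 of the 100 then nearest had their highest mean in RO. Both the ranking and the control means were recomputed without that library, and their parts in this count were not separated.

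For ENSBTAG00000044427 the count with RO highest was 36 of 100, close to the background of 35.9%, and 41 of the 100 were lower in RA than in RO (median log2 fold change 0.03). Ranges of r show the same over all genes, without a run term. The median log2 fold change for RA against RO went from 0.16 at r below -0.6 with ENSBTAG00000022548 (91 genes) to -0.26 at r above 0.6 (345 genes). For ENSBTAG00000044427 it stayed between -0.04 and 0.05 in the ranges of at least 20 genes.

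Run as a covariate in the fold changes altered these counts for both genes. Among the 100 nearest to ENSBTAG00000022548, 70 were then lower in RA than in RO (median -0.05, against 49.0% of all genes), and at the opposite end 42 of 100 were (median 0.03). The part of the pattern that sets RO above control was near the background: 43 of the 100 nearest were lower in RO than in control, against 49.5% of all genes, where 12 had been without the run term. Lower levels in RA than in control were found for 76 of the 100, against 49.9% of all genes and 95 without the run term. Among the 100 nearest to ENSBTAG00000044427, 10 were lower in RA than in RO with run as a covariate (median 0.17), and 81 of 100 at the opposite end (median -0.19). With run in the model, RO met the other groups only in run A and through the 1 control of run B. In run A, RO replicate 7 deviated by -0.81 from its group mean for ENSBTAG00000044427, and control replicate 5 by 0.39. The ranking used these same deviations, with run not removed, so the counts of 10 and 81 are in part set by it. They are given as a description beside the gene's own value of -0.62 (SE 0.50).

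Removing run means before ranking as well kept 48 of the 100 genes nearest to ENSBTAG00000022548 and 37 of those nearest to ENSBTAG00000044427. Of the 100 then nearest to ENSBTAG00000022548, 88 had RO highest in means not adjusted for run. With run as a covariate 84 of them were lower in RA than in RO (median -0.17) and 91 lower in RA than in control (median -0.15), whereas 43 were lower in RO than in control (median 0.01), near the background. For ENSBTAG00000044427 that ranking gave 16 with RO highest and, with run as a covariate, 28 lower in RA than in RO and 79 lower in RO than in control.

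**Figure D5:**
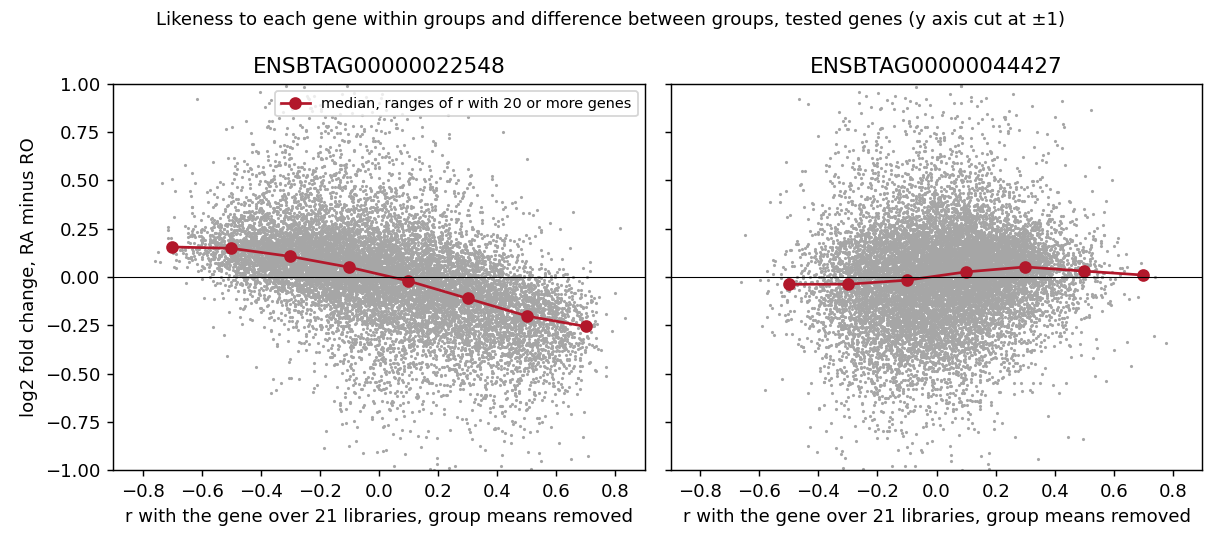
Each grey point is a tested gene, placed by its correlation with the named gene within groups (x) and its log2 fold change for RA against RO (y, cut at ±1); red points join the medians in ranges of r holding at least 20 genes. Medians for ENSBTAG00000022548 go from 0.16 on the left to -0.26 on the right, while those for ENSBTAG00000044427 stay between -0.04 and 0.05.

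Ranking inside 1 group alone allowed the difference to be taken between the other 2 groups, in libraries that played no part in the ranking. In the 7 controls, the 100 genes nearest to ENSBTAG00000022548 and the 100 nearest to ENSBTAG00000044427 shared 54, and of each list 98 were lower in RA than in RO, where 47.5% of 13200 genes were. Their median log2 fold changes were -0.32 each, against 0.01 for all genes. At the opposite end, 7 and 4 of 100 were lower in RA. Genes that varied with these 2 among the control heifers were mostly lower in RA than in RO, in fold changes without a run term. Run B held 6 of the 7 RO libraries and no RA library, so run and group cannot be told apart here. The 2 members had also been chosen as lower in RA than in RO. Since their lists overlap, the 2 counts are not separate observations. Within each list all 100 genes had r of at least 0.93 with the same gene over 7 libraries. They thus stand for a shared pattern and not for 100 separate observations. Over the 6 controls without replicate 7 the counts were 81 and 76 of 100 at the near end and 17 and 14 at the opposite end. In the 5 controls of run C alone they were 90 and 93, and without replicate 5 both were 98.

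In RA alone, the 100 genes nearest to ENSBTAG00000022548 included 5 of those found in controls, and 16 of the 100 were lower in RO than in control, where 45.8% of all genes were. The RA list of ENSBTAG00000044427 shared 4 genes with its control list, and 36 of 100 were lower in RO than in control. Both members had also been chosen as highest in RO. The direction of genes that vary with them is thus not separate from that choice, and both counts are a description. Fold changes in this paragraph and the next had no run term either.

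In RO alone, the lists of the 2 genes had 0 genes in common with each other, and each had 0 in common with the same gene's control list and RA list. Lists of 100 drawn at random from so many genes would also share few or none, so these overlaps are no result about RO. ENSBTAG00000044427 had 100 genes at r of at least 0.964 over the 7 RO libraries, and 5 of these were lower in RA than in control, where 51.9% of all genes were (median log2 fold change 0.12, against -0.01 for all). For the RO list of ENSBTAG00000022548 that count was 43 of 100, near the background. The genes of each list vary with 1 gene over the same 7 libraries, so they are not 100 separate observations. Among 13228 genes, ENSBTAG00000044427 ranked 3282 for likeness to ENSBTAG00000022548 in RO, but 12 in controls. With 7 libraries in each ranking the order of single genes is loose, and 6 of the 7 RO libraries came from 1 run, and the part of run in these lists was not tested.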

How the data were processed

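The authors deposited 1 table of raw read counts per gene for each library, whole numbers with no normalization. Per the submitters' processing notes, CASAVA 1.4, Bowtie, SAMtools and HTSeq were used. No source used here gives the build, annotation, strand setting or handling of multiply mapped reads. Groups came from the sample titles.

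Counts were filtered with edgeR's filterByExpr (minimum count 10, minimum total 15), scaled by TMM and fitted with edgeR 4.0.16 (quasi-likelihood, R 4.3.3) as 3 group means over 21 libraries. Log2 CPM used a prior count of 2. Correlations used 100000 permutations within groups, or all arrangements within a group of 7, with Benjamini-Hochberg adjustment per family. Named partner genes are the 10 highest and 5 lowest by r. Marker and pathway lists were not used, since identifiers had no symbols. Fits and rankings were tested on simulated data. Alternatives included RLE and upper-quartile scaling, other filters, DESeq2 1.42.0, limma-voom 3.58.1, run, replicate block and leaving out each library. The 2 genes, lists and tests were chosen with earlier results of these data known.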

Additional observations from a re-analysis of the deposited data

How the results depend on the processing

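Group differences of both genes kept their signs under every alternative run. With run as a covariate RA against RO moved to -0.40 for ENSBTAG00000022548 and -0.62 for ENSBTAG00000044427, with 95% intervals that included 0. The replicate block changed no sign and left the within-group correlation at 0.520 (permutation p = 0.0198). Replicate numbers did not pair the libraries (mean r of deviations -0.045 over 21 pairs, 4 above 0.1, and 3 of 21 libraries nearest to one of their own number). The within-group correlation was 0.492 (permutation p = 0.0990) without run C and 0.348 (permutation p = 0.176) without both RA replicate 4 and control replicate 7, and 0.522 to 0.697 leaving out 1 library. In RO alone it ran from -0.0156 (without replicate 1) to 0.499.

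The nearest genes changed with the setting. Of the 20 nearest to ENSBTAG00000022548, 7 were kept with Spearman's rho, 6 with run means removed, 3 without both named libraries, 6 without run A and 7 to 16 leaving out 1 library. For ENSBTAG00000044427 these were 11, 7, 3, 9 and 5 to 18, and 9 with no filter. The count of its 100 nearest with RO highest was 59 with no filter, 16 with run means removed, 18 without both named libraries and 17 to 52 leaving out 1 library (17 without control replicate 7). For ENSBTAG00000022548 it was 60 to 95. Leaving out a library changed the group means used for these counts as well as the ranking. The cause was not tested. Alternatives without both libraries, without run A, within single groups and on the ratio were chosen after seeing the data.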

Other observations

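No library stood apart from its group in 9 sets of 7 values (log2 CPM of each gene and their log2 ratio, in each group) by Dixon's 95% limit on the share of the range taken by the gap to the nearest library. The largest share, 0.504, was that of control replicate 7 for ENSBTAG00000044427, at 2.47 log2 CPM against 3.08 in the nearest control. RA replicate 4 came next at 0.479 for ENSBTAG00000044427 and 0.469 for ENSBTAG00000022548.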
